A study of Homo sapiens with 2 samples.

Results

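Among CD7+ cells derived from human embryonic stem cells, 586 barcodes at day 10 of co-culture carried transcripts of blood progenitors and of the T cell receptor complex together. They were chosen on measured values, with at least 1 UMI of *CD34*, at least 2 of *SPINK2*, at most 1 of *GATA2*, fewer than 20 of *HLA-DRA* and at least 10 of *CD3D* and *CD3G* summed. A UMI (unique molecular identifier) stands for 1 captured transcript. These CD3-expressing progenitors made up 4.84% (exact binomial 95% interval 4.46 to 5.23) of the 12114 barcodes kept at day 10 and 77.6% of the 755 that met all limits but the last. They were compared with the other 169, the CD3-low progenitors, and with 8409 barcodes that had no *SPINK2* UMI and at least 10 of *CD3D*, named SPINK2-negative CD3D-high cells. These values chose the groups, so the levels of the 6 genes used are descriptions only.

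The cells came from H1, an established line of human embryonic stem cells. They had been through 12 days of hematopoietic differentiation and then 10 or 14 days on OP9-DLL4, a mouse stromal line that presents the Notch ligand DLL4. They were sorted for surface CD7 and sequenced as 1 droplet-based library per day, and the 2 days together hold 21043 kept barcodes. All 3 groups come from the day 10 library, with no replicate, so there are no tests, and intervals (exact, 95%) reflect counting error alone.

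T cell development begins with progenitors that carry CD34 and still transcribe stem and myeloid genes. Under Notch signaling they switch on T lineage factors such as *GATA3*, *TCF7* and *BCL11B*, assemble the CD3 chains and rearrange the T cell receptor genes, while the progenitor program is shut down. CD3 delta and gamma, encoded by *CD3D* and *CD3G*, pair with CD3 epsilon in the receptor complex, and the zeta chain (*CD247*) carries the signal inward. *SPINK2* encodes a protease inhibitor of the Kazal type, and CD34 is a surface sialomucin of blood progenitors.

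In GRCh38, *CD3D* (ENSG00000167286) lies on chromosome 11 from 118339075 to 118342705 on the minus strand. *CD3G* (ENSG00000160654) lies beside it, from 118344344 to 118355161 on the plus strand. Both chains are thus read outward from a shared stretch, and their annotated starts are 1639 bases apart. *CD34* (ENSG00000174059) lies on chromosome 1 from 207880972 to 207911402 and *SPINK2* (ENSG00000128040) on chromosome 4 from 56809860 to 56821742, both on the minus strand. The 250 bases upstream of the RefSeq start of 3 of the genes that define the cells are shown, from GRCh38.p14 and read 5′ to 3′ on the minus strand, since one belongs to a gene of the CD3 complex and the others to the progenitor genes that chose these cells. Capitals mark matches on either strand to any of 5 motifs. The E-box was searched as CANNTG and the GATA motif as AGATAA. The motif of TCF and LEF factors was searched as CTTTGA, that of RUNX factors as TGTGGT, and that of ETS factors as CCGGAA. The windows are chr11:118342706-118342955 for *CD3D*, chr1:207911126-207911375 for *CD34* and chr4:56821702-56821951 for *SPINK2*.
CD3D: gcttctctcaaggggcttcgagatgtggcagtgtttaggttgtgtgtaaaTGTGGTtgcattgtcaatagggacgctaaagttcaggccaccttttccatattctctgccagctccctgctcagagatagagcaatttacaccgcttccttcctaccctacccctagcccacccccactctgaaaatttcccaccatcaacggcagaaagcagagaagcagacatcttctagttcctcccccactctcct
CD34: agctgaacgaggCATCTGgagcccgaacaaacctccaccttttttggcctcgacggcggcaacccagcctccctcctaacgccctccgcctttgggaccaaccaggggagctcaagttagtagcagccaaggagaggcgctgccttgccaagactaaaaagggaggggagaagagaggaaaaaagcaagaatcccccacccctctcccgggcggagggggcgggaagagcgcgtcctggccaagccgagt
SPINK2: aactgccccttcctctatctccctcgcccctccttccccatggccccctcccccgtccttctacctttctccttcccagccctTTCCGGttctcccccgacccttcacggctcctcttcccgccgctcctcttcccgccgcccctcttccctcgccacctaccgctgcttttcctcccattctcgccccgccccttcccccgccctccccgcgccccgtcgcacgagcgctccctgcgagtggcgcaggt
The *CD3D* stretch holds 1 RUNX match, and 11% of 35116 promoter windows of this length hold one. *CD34* has 1 E-box match (61.8% of windows) and *SPINK2* 1 ETS match (14.5%). The RefSeq table gives 2 starts for *SPINK2*, of which the one nearer to the end of the annotated gene is shown, and its window overlaps the first bases of that gene model. The window of the other *SPINK2* start holds 1 E-box match and no ETS match. The *CD34* window lies within the annotated gene, whose model begins farther upstream than the RefSeq start. GATA and TCF/LEF letters were in 9.17% and 11.2% of all windows and in none of these 3. A match describes the letters, not a bound site.

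Expression is given as CPM, from UMIs pooled across the barcodes of a group and divided by the group's total (in units of 1e6). *CD3D* stood at 1053 CPM in CD3-expressing progenitors, 268 in CD3-low progenitors and 1936 in SPINK2-negative CD3D-high cells, and *CD3G* at 315, 27.1 and 781 CPM. *CD34* ran the other way, at 142, 214 and 2.05 CPM, and *SPINK2* stood at 303 and 557 CPM in the progenitors. Per barcode, the CD3-expressing progenitors held a median of 21 *CD3D* and *CD3G* UMIs (quartiles 15 and 33), against 5 in CD3-low progenitors and 44 in SPINK2-negative CD3D-high cells. Just inside the limit, 79 barcodes had 10 to 12 such UMIs, and just outside it 55 had 7 to 9. *CD3E*, which the rule did not use, stood at 61.8 CPM inside and 33.8 outside, *BCL11B* at 38.9 and 13.8, *IGLL1* at 1610 and 1374, and the progenitor gene *C1QTNF4* at 539 and 691.

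Depth and doublet calls moved with the CD3 count, and the barcodes at its upper end stand apart. The median was 18178 UMIs in CD3-expressing progenitors, 15063 in CD3-low progenitors and 16404 in SPINK2-negative CD3D-high cells. Scrublet, which scores barcodes that resemble 2 cells, called 54 of the 586 (9.22%), 1 of the 169 (0.592%) and 149 of the 8409 (1.77%). Of the 112 barcodes with 40 or more CD3 UMIs, 46 were called (41.1%), at a median of 31655 UMIs. Of the 474 with 10 to 39, 8 were called (1.69%). What these calls contribute was not tested, and values are given below by CD3 count and without the upper end. The libraries share 29 kept barcode sequences.

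**Figure D1:**
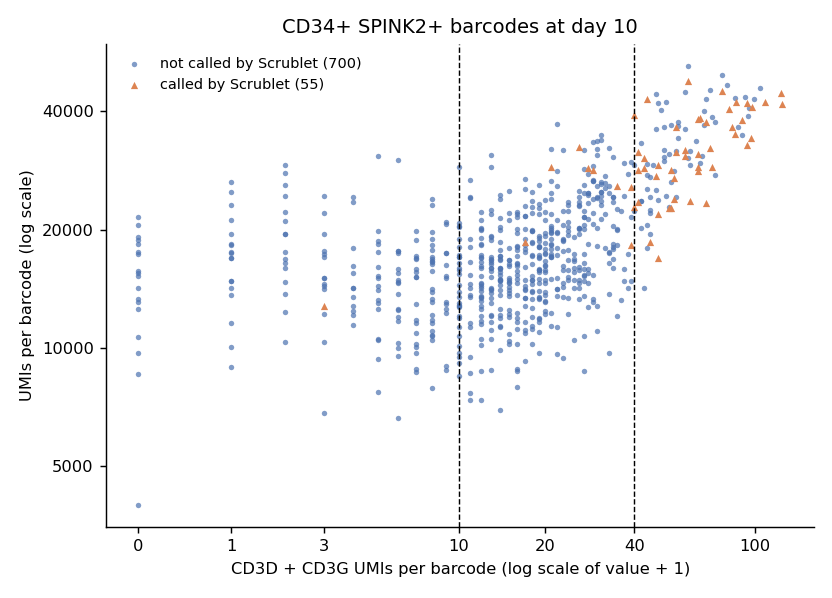
Total UMIs against the sum of CD3D and CD3G UMIs, both on log scales, for each of the 755 CD34+ SPINK2+ barcodes at day 10. Dashed lines stand at 10 and 40 UMIs, and 46 of the 55 barcodes called by Scrublet lie at or beyond 40, where totals are highest.

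Most other genes had levels between those of the comparison groups, which the choice of groups on progenitor and CD3 transcripts partly sets. For 67.4% of 6100 genes at 20 CPM or more in a group, the level in CD3-expressing progenitors lay between those of the other groups. This share is a description only. Most of these genes differed little between the 2 comparison groups, since 436 were at least 2-fold higher and 306 at least 2-fold lower in SPINK2-negative CD3D-high cells. Of 5775 genes compared with CD3-low progenitors, 93 (1.61%) were at least 2-fold higher and 36 (0.623%) at least 2-fold lower, with 5 CPM added to each level. With the 474 barcodes at 10 to 39 CD3 UMIs alone, 52 genes were higher, 50 of them among the 93, and 24 were lower, 23 of them among the 36. Against SPINK2-negative CD3D-high cells, 153 of 5878 genes (2.6%) were higher and 152 (2.59%) lower. The median log2 ratio of all genes was 0.17 over CD3-low progenitors and -0.04 over SPINK2-negative CD3D-high cells. Scaling by median ratios changed the split over CD3-low progenitors to 62 genes higher and 84 lower, so each ratio below is best read against that shift.

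Transcripts of both programs were found in the same barcodes. After each barcode was thinned to 5000 UMIs, 75.3% of CD3-expressing progenitors showed at least 2 of 7 progenitor genes that the rule had not used (*BAALC*, *C1QTNF4*, *BCL11A*, *MEF2C*, *LYL1*, *SPI1* and *LMO2*). At least 2 of 7 T lineage genes (*CD3E*, *CD247*, *LCK*, *LAT*, *BCL11B*, *TCF7* and *TRBC1*) were seen in 47.8%, and 30.2% (26.5 to 34.1) showed at least 2 of both. The share with both was 26.2% (22.3 to 30.4) among those with 10 to 39 CD3 UMIs, 56 of 112 among those with 40 or more, 6.55% in CD3-low progenitors and 2.61% in SPINK2-negative CD3D-high cells. The groups were chosen on progenitor and CD3 transcripts. Differences between them in these shares are thus partly set by the rule and are descriptions only. A further 24.9% of CD3-expressing progenitors showed none of the 7 T lineage genes at this depth. Myeloid barcodes, with at least 20 *HLA-DRA* and 5 *LYZ* UMIs and no *CD34* or *SPINK2*, serve as the background for T cell transcripts. In 545 of them 13.4% showed at least 2 T lineage genes, which fell to 6.34% of the 505 not called by Scrublet. At least 2 of the 7 progenitor genes were seen in 60.6% of the 545, and at least 2 of both in 4.59%. The 7 progenitor genes thus do not by themselves set progenitors apart from myeloid barcodes. Of the 545, 77 (14.1%) reached 10 *CD3D* and *CD3G* UMIs, and Scrublet called 40 of those 77. Median totals were 14968 UMIs in myeloid barcodes and 18178 in CD3-expressing progenitors before thinning.

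The remaining chains of the receptor complex followed *CD3D* and *CD3G* unequally. *CD3E* stood at 130 CPM (124 to 137) in CD3-expressing progenitors, 16.8 (12.2 to 22.6) in CD3-low progenitors and 335 (332 to 338) in SPINK2-negative CD3D-high cells. Thinned barcodes with a *CD3E* UMI made up 42.0%, 9.52% and 78.4% of these groups and 11.2% of myeloid barcodes. *CD247* stood at 138, 8.41 and 613 CPM, a smaller part of the way. Of 12 genes of T cell receptor signaling and the T cell surface that could be compared with CD3-low progenitors, 6 were higher and none lower, with a median log2 ratio of 1.11, or 0.68 with no filter on low values. The higher ones were *CD3E*, *CD247*, *LCK* (89.4 against 23.7 CPM), the kinase that phosphorylates the CD3 chains, the adaptors *LAT* (98.6 against 10.3) and *GRAP2* (25.2 against 0.764), and *TRAT1* (43.2 against 14.9). With 10 to 39 CD3 UMIs alone *GRAP2*, at 16.3 CPM, fell under the 20 CPM needed for this comparison. *CD7*, the basis of the sort, stood at 161 against 81.0 CPM. Against SPINK2-negative CD3D-high cells, 8 of 16 genes of the list were lower and none higher.

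Constant regions of the receptor loci were transcribed as well. All 5 chain genes compared with CD3-low progenitors were higher, at a median log2 ratio of 1.73. *TRGC1* stood at 171 CPM (164 to 179), against 48.2 in CD3-low progenitors and 145 (143 to 147) in SPINK2-negative CD3D-high cells, so that it was no lower than in the latter. *TRBC2* stood at 170, 54.3 and 226 CPM, and *TRDC*, the delta constant region, at 176, 9.94 and 711 CPM. Without the barcodes of 40 or more CD3 UMIs *TRDC* stood at 87.1 CPM, no higher than the 102 CPM of myeloid barcodes, Scrublet calls included. *TRBC1* and *TRBC2*, and *TRGC1* and *TRGC2*, are near-identical copies whose reads the counting could have divided, so their separate levels are uncertain. The share of thinned barcodes with a *TRGC1* UMI was 50.2%, close to 49.1% in SPINK2-negative CD3D-high cells, and 4.95% in myeloid barcodes. *PTCRA*, the surrogate alpha chain of the pre-receptor, stood at only 9.83 CPM against 55.3 in SPINK2-negative CD3D-high cells. It was held by 1.54% of thinned barcodes against 1.65% of myeloid ones, a share no higher than this background, in which Scrublet calls were kept.

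The recombinase was close to undetected. *RAG1*, a recombinase subunit, stood at 3.08 CPM in CD3-expressing progenitors, 0 in CD3-low progenitors and 10.8 in SPINK2-negative CD3D-high cells. *DNTT*, the terminal transferase that adds bases at the joints, had a UMI in 0 of 586 CD3-expressing progenitors, which allows a share of barcodes with a UMI of up to 0.512% and sets no limit on barcodes that express it, and in a single barcode of all 12114 kept at day 10. The end-joining genes were abundant in every group. *XRCC5* and *XRCC6*, which encode the Ku subunits, stood at 598 and 383 CPM in CD3-expressing progenitors and 453 and 295 in CD3-low progenitors. None of 7 genes of the recombination list passed 2-fold against either group, and its median log2 ratio over CD3-low progenitors was 0.30. *ADA*, a purine salvage enzyme whose loss causes immunodeficiency, had the highest ratio of the list, at 481, 252 and 649 CPM.

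T lineage transcription factors did not move together. Of 14 compared with CD3-low progenitors, 5 were higher and none lower (median log2 ratio 0.75). *BCL11B*, a factor of T lineage commitment, stood at 85.7 CPM (80.6 to 91.1), 6.12 (3.50 to 9.93) and 171 (169 to 173) in CD3-expressing progenitors, CD3-low progenitors and SPINK2-negative CD3D-high cells. *GATA3* stood at 125, 31.7 and 267 CPM, *RUNX3* at 123, 53.5 and 148, and *ID2*, an inhibitor of E proteins, at 20.5, 6.50 and 29.6. *RUNX3* lay just short of 2-fold with 10 to 39 CD3 UMIs alone, at 111 CPM. *TCF7*, the Notch-induced HMG box factor TCF1, was the fifth, at 23.3, 7.64 and 129 CPM, but only through the upper end of the CD3 count, since it stood at 9.46 CPM in members with 10 to 39 CD3 UMIs. Its share of thinned barcodes was 4.22% among those, no higher than the 4.95% of all myeloid barcodes, 7.34% of which Scrublet called. *LEF1*, a related factor, did not pass 2-fold (52.1 against 24.8 CPM), nor did *TOX* (29.5 against 14.9), *SATB1* (66.1 against 58.1) or *ETS1* (10.9 against 11.1).

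Of 7 Notch pathway genes compared with CD3-low progenitors 2 passed 2-fold, with a median log2 ratio of 0.84 over the 7 and of 0.12 over the whole list with no filter on low values. These were the feedback regulators *NRARP*, at 75.6, 21.0 and 195 CPM in the order of groups above, and *DTX1*, at 50.5, 11.8 and 102 CPM. *HES4*, a Notch target, stood at 292, 161 and 304 CPM and the receptor *NOTCH1* at 94.4, 47.4 and 105 CPM, both nearly at the level of SPINK2-negative CD3D-high cells. *HES1*, another target, was low and flat, at 18.8, 22.9 and 20.3 CPM. *RBPJ*, the DNA-binding partner of Notch, was also flat, at 86.2, 78.4 and 97.6 CPM.

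Progenitor genes were lower by degrees. Of 17 transcription factors of blood stem and progenitor cells, 4 were lower than in CD3-low progenitors and none higher (median log2 ratio -0.60), whereas 12 of 14 were higher than in SPINK2-negative CD3D-high cells and none lower (median 2.04). The 4 were *HOPX* (21.2 against 88.7 CPM), *LMO2* (12.2 against 48.5), *HHEX* (38.3 against 84.1) and *MEIS1* (6.25 against 20.3), all factors of early blood cells. *HHEX* lost its call with 10 to 39 CD3 UMIs alone, at 44.6 CPM, and also without Scrublet calls. Others differed less. *LYL1*, a basic helix-loop-helix factor, stood at 191 against 238 CPM, *MYB* at 132 against 134, *RUNX1* at 76.9 against 83.3 and *ERG* at 27.8 against 34.4. *SPI1*, which encodes the myeloid and early lymphoid factor PU.1, and *BCL11A* lay between, at 45.3 against 71.1 and 95.8 against 166 CPM.

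The same held for progenitor surface and other genes, of which 2 of 16 were lower than in CD3-low progenitors and 10 of 14 higher than in SPINK2-negative CD3D-high cells. *C1QTNF4*, a secreted protein with C1q domains, stood at 318 CPM (308 to 329), 696 (664 to 729) and 4.19 (3.87 to 4.54) in CD3-expressing progenitors, CD3-low progenitors and SPINK2-negative CD3D-high cells. With 10 to 39 CD3 UMIs alone *C1QTNF4* stood at 385 CPM, no longer past 2-fold below CD3-low progenitors. *NPR3*, a natriuretic peptide receptor, was the other lower gene, at 3.92 against 34.0 CPM. *BAALC* stood at 58.1, 93.3 and 1.78 CPM and *EGFL7* at 293, 494 and 25.3 CPM. *CD44*, an adhesion receptor that falls during early thymic development, stood at 123, 246 and 42.6 CPM. *MPO*, the myeloperoxidase of granulocyte precursors, was above both groups at 122, 77.2 and 1.65 CPM. A single barcode held 12.8% of its UMIs in CD3-expressing progenitors, and without that barcode's UMIs the level was 106 CPM.

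A few genes lay outside the range of both comparison groups. There were 15 genes (0.246% of 6100) at least 1.5-fold above both and 4 (0.0656%) at least 1.5-fold below both. *IGLL1*, which encodes the lambda 5 chain of the surrogate light chain, stood at 1888 CPM (1864 to 1913) against 897 (862 to 935) in CD3-low progenitors and 602 (598 to 606) in SPINK2-negative CD3D-high cells. It was found in 581 of the 586 barcodes. SPINK2-negative CD3D-high cells are pooled here. The paper describes strong *IGLL1* expression in a cluster of early T cells without *CD4* or *CD8* transcripts. A high level was thus not shown to be particular to these progenitors. *ITM2A*, a membrane protein of developing thymocytes, stood at 1568, 893 and 776 CPM and was found in all 586. *ETV5*, an ETS factor, stood at 28.2, 11.8 and 8.34 CPM and *GXYLT2*, a xylosyltransferase of the kind that modifies Notch, at 32.7, 14.1 and 5.64 CPM. *CCL1*, a chemokine, stood at 31.4, 8.41 and 3.64 CPM, but 1 barcode held 21.5% of its UMIs. *GZMA*, granzyme A, stood at 61.1, 10.3 and 34.4 CPM and had UMIs in 201 barcodes. The 4 below both were *FCGRT*, *CST3*, *CD24* and *CD74*, and the SPINK2-negative cells had no *HLA-DRA* limit. *CST3* and *CD74*, at 38.2 and 29.4 CPM, were far higher in myeloid barcodes, at 4603 and 4113 CPM.

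Split by CD3 count, the genes rose in different bins. The bins rank barcodes of 1 library by the count that the rule used, so they give no order in time. The bins held 52 barcodes with 0 to 2 *CD3D* and *CD3G* UMIs, 117 with 3 to 9, 259 with 10 to 19, 215 with 20 to 39 and 112 with 40 or more. *IGLL1* stood at 351, 1175, 1783, 2278 and 1548 CPM in this order, so that its largest step came below the limit of 10 and its highest level at 20 to 39. *TRGC1* stood at 26.1, 59.4, 125, 212 and 175 CPM and *TRBC2* at 18.1, 72.7, 131, 186 and 195 CPM. *BCL11B* stood at 1.13, 8.65, 47.4, 77.9 and 138 CPM, and *CD3E* at 6.80, 21.9, 71.3, 131 and 194 CPM. These genes were all raised by the bin of 10 to 19 UMIs, where a single barcode of 259 was called by Scrublet. *LTB*, a lymphotoxin chain, made its main step between the bins of 10 to 19 and 20 to 39, at 146, 269, 669, 1868 and 2219 CPM.

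Some T lineage genes had their main step in the highest bin. *TCF7* stood at 5.67, 8.65, 8.35, 10.5 and 55.1 CPM along the same bins, and *CD1E*, a lipid-presenting molecule of cortical thymocytes, at 2.27, 5.77, 3.93, 17.3 and 218 CPM. *PTCRA* stood at 0 CPM at 10 to 19 UMIs, 3.27 at 20 to 39 and 28.5 at 40 or more. *CD247* and *LAT* were intermediate, with 310 and 225 CPM in the highest bin against 91.5 and 61.8 in the bin below it. This highest bin is also the one with 41.1% of barcodes called by Scrublet. Without it, *CD1E* stood at 10.8 CPM in CD3-expressing progenitors in place of 73.7, *CD247* at 62.4 in place of 138, *LAT* at 43.3 in place of 98.6 and *BCL11B* at 63.1 in place of 85.7. Myeloid barcodes, Scrublet calls included, held these genes at 93.2, 80.7, 60.7 and 25.3 CPM. Without the highest bin, *BCL11B* alone of these genes thus stood above the myeloid level.

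The progenitor genes fell along the bins at unequal pace. *LMO2* stood at 51.0, 47.3, 19.9, 8.63 and 7.95 CPM and *HOPX* at 126, 69.8, 34.4, 13.5 and 15.3 CPM, both near their lowest level by 20 to 39 UMIs. *C1QTNF4* stood at 714, 687, 494, 281 and 167 CPM and *BCL11A* at 170, 164, 132, 88.2 and 64.4 CPM. *LYL1* changed least of these 5 genes, at 213, 250, 231, 208 and 125 CPM. Among barcodes with 10000 to 20000 UMIs and no Scrublet call, the first 4 bins held 36, 95, 200 and 114 barcodes, a comparison added after seeing the data. There *BCL11B* stood at 0, 5.05, 48.8 and 84.9 CPM, *TRGC1* at 28.4, 56.3, 133 and 180, *LMO2* at 65.8, 49.8, 19.2 and 8.27, and *TCF7* at 7.11, 9.39, 9.09 and 7.16. The courses of these 4 genes were thus much as in all barcodes.

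**Figure D2:**
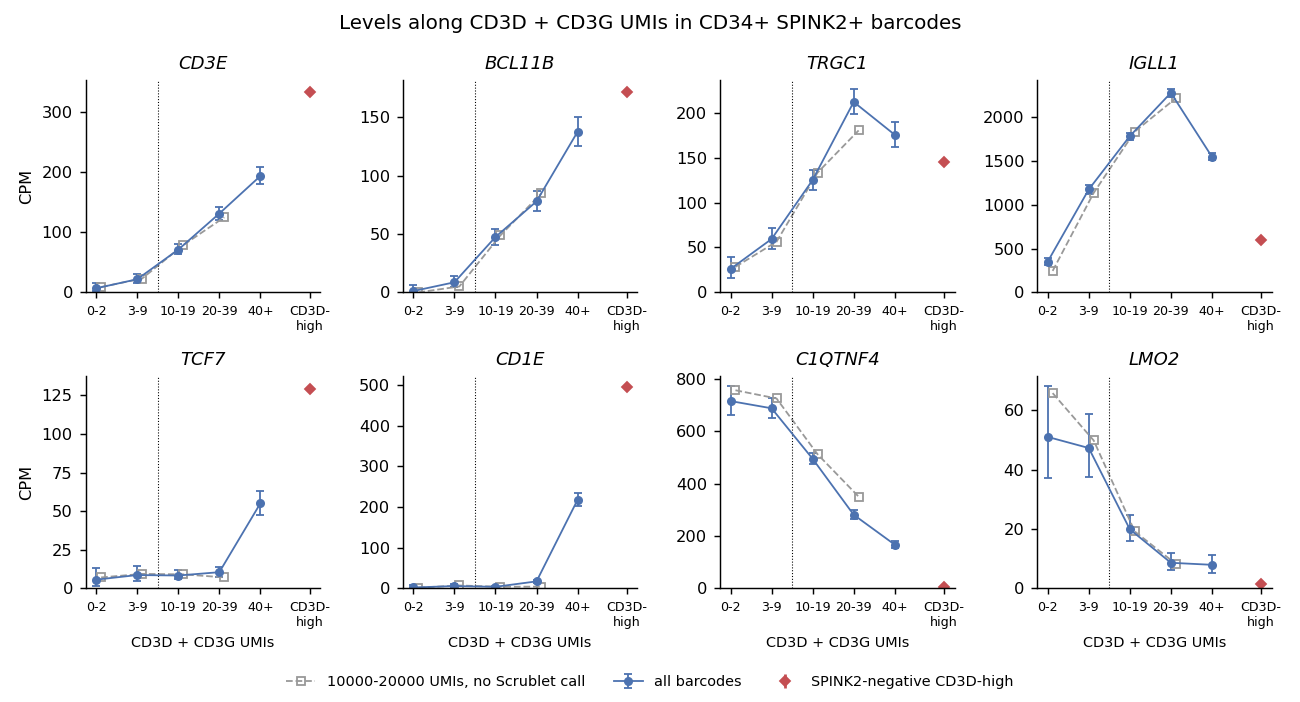
CPM of 8 genes in CD34+ SPINK2+ barcodes binned by CD3D and CD3G UMIs (blue circles with exact 95% Poisson intervals), in the barcodes of similar depth without a Scrublet call (grey squares) and in SPINK2-negative CD3D-high cells (red diamonds). The dotted line marks the limit of 10 UMIs. CD3E, BCL11B, TRGC1 and IGLL1 rise across it, TCF7 and CD1E stay low until 40 UMIs, and C1QTNF4 and LMO2 fall.

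The same bin levels can be rescaled as a position on the way from CD3-low progenitors (0%) to SPINK2-negative CD3D-high cells (100%). Over the 436 genes at least 2-fold higher in the latter, the median position of CD3-expressing progenitors was 35.8% (quartiles 22.5 and 50.8), and over the 306 at least 2-fold lower it was 45.3%. In the bin of 10 to 19 UMIs, *TRGC1* stood at 79.3% of the way, *CHI3L2*, a chitinase-like protein, at 54.4%, *TRBC2* at 44.9%, *BCL11B* at 25% and *CD3E* at 17.1%. In the same bin *CD247* stood at 3.85%, *TCF7* at 0.584%, *CD1E* at -0.134% and *IL32*, a cytokine gene at 1372 CPM in SPINK2-negative CD3D-high cells, at -0.0160%. In that bin the T lineage genes thus did not stand in the proportions of the pooled SPINK2-negative CD3D-high cells, and the reason was not tested. At 40 or more UMIs *TCF7* stood at 39%, *CD1E* at 43.5%, *IL32* at 39.3%, *CD247* at 49.9% and *CD3E* at 55.7%. Of the falling genes, *HOPX* and *LMO2* stood at 63.8% and 60.9% at 10 to 19 UMIs, while *LYL1* stood at 2.77% and *BAALC* at 6.59%. Barcodes of at most 100 UMIs, which hold free RNA, contained *IL32* at 1097 CPM, and CD3-low progenitors at 13.0 CPM. What free RNA contributes to these levels was not tested.

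**Figure D3:**
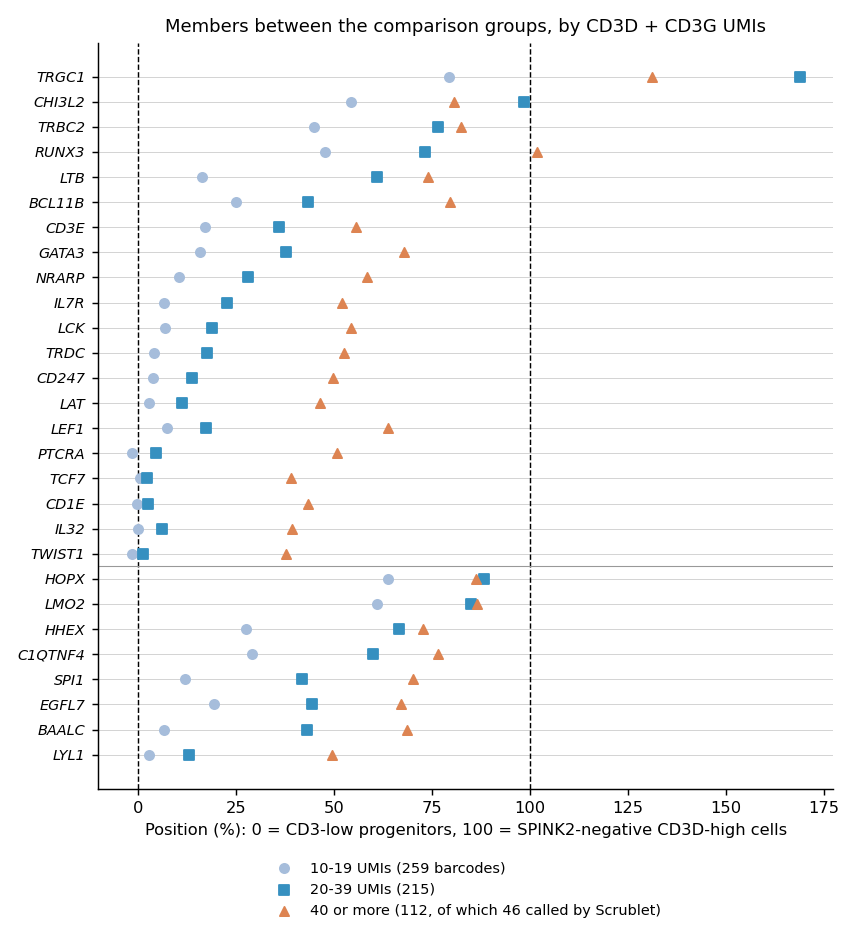
Position of CD3-expressing progenitors between CD3-low progenitors (0%) and SPINK2-negative CD3D-high cells (100%) for 20 genes higher (above the grey line) and 8 genes lower in the latter, in 3 bins of CD3D and CD3G UMIs. At 10 to 19 UMIs the genes spread from about 0% for CD1E and IL32 to 79.3% for TRGC1, and at 40 or more CD1E and IL32 stand at 43.5% and 39.3%.

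Some cell cycle genes were higher. Of 22 genes of G2 and mitosis, 6 passed 2-fold over CD3-low progenitors and none was lower (median log2 ratio 0.86), with *PLK1*, a mitotic kinase, at 83.4 against 24.8 CPM and *MKI67* at 210 against 100 CPM. With 10 to 39 CD3 UMIs alone *PLK1* kept its call and the other 5 (*MKI67*, *CCNA2*, *CDK1*, *CDC20* and *AURKA*) lost it, with *MKI67* at 172 CPM. These 5 calls thus rest on the bin of 40 or more CD3 UMIs, where Scrublet called 41.1%. With only Scrublet calls left out, the list median was 0.91. In the order given, the 5 genes then stood at 202, 84.8, 120, 104 and 77.7 CPM in CD3-expressing progenitors. All CD3-low progenitors together had 100, 39.4, 55.4, 50.8 and 33.6 CPM. Of 22 S phase genes, *RRM2* alone passed 2-fold (median 0.34). Summed over its genes, the G2 and mitosis list stood at 3658 CPM in CD3-expressing progenitors, 1984 in CD3-low progenitors and 5077 in SPINK2-negative CD3D-high cells. Per barcode the list varied widely among CD3-expressing progenitors, from 4.29 to 73.4 per 10000 UMIs between the percentiles 10 and 90. The 293 barcodes with more cycle transcripts had a median of 22255 UMIs and the other 293 had 15326. *C1QTNF4* stood at 265 and 394 CPM in these sets.

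The cells also varied with *CD34* itself. Split at the median of 1.34 *CD34* UMIs per 10000, the upper 293 barcodes held more *HHEX* (56.3 against 24.5 CPM), *C1QTNF4* (436 against 229), *BAALC* (80.2 against 41.2) and *CD44* (162 against 93.2). The lower 293 held more *CD247* (183 against 78.7 CPM), *LTB* (2021 against 976), *IL7R* (61.0 against 26.9) and *TRDC* (230 against 106). The upper set had a median of 16189 UMIs and the lower 20255, so depth differed along with *CD34*. The CD3 count, with which *CD247* and *TRDC* also rise, was not held fixed, and Scrublet calls were kept. What each contributes was not tested.

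Cytokine receptors and ligands of lymphoid cells were among the higher genes. *IL7R*, the alpha chain of the receptor for interleukin 7, which was added to the culture, stood at 46.2, 4.20 and 165 CPM in CD3-expressing progenitors, CD3-low progenitors and SPINK2-negative CD3D-high cells. *IL2RG*, the common gamma chain with which it pairs, stood at 126, 49.3 and 193 CPM, and *TNFRSF18* at 25.8, 10.3 and 68.6. These 3 of 6 receptors passed 2-fold over CD3-low progenitors. With 10 to 39 CD3 UMIs alone *TNFRSF18* lost its call at 17.6 CPM, and *IL7R* stood at 28.1 CPM. *LTB* stood at 1568, 228 and 2915 CPM. Of the remaining genes with the largest ratios, *OSM* (oncostatin M) stood at 64.8 against 2.29 CPM and *SOCS1*, a suppressor of cytokine signaling, at 53.7 against 4.97. *KIT* and *FLT3*, receptors of stem cell factor and FLT3 ligand, were under 20 CPM in all 3 groups and were not compared.

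Defining markers of several other lineages were at or near 0 in CD3-expressing progenitors. Of 10 markers of megakaryocyte, erythroid and mast cell progenitors 8 stood under 5 CPM, and of 11 monocyte markers 7, with *CD14* at 2 UMIs and *FCN1* at 0 over all 586 barcodes. Summed, those 10 markers stood at 43.7 CPM, against 45.5 in CD3-low progenitors and 12.2 in SPINK2-negative CD3D-high cells. The 1 gene of that list compared with the latter was higher (log2 ratio 2.08). The rule itself limited *GATA2* in both progenitor groups. *CLEC9A* and *XCR1* of dendritic cells had 2 UMIs each, and *MS4A1* of B cells had 0. The endothelial markers *CDH5* and *KDR* were at 0, while the list summed to 77.6 CPM against 84.5 in CD3-low progenitors and 22.4 in SPINK2-negative CD3D-high cells, most of it from *PECAM1* at 70.2 CPM. Summed, the monocyte markers stood at 264 CPM in CD3-expressing progenitors, 354 in CD3-low progenitors, 199 in SPINK2-negative CD3D-high cells and 7727 in myeloid barcodes. Of 5 stromal markers, *COL3A1*, *DCN* and *LUM* had none. *LYZ* stood at 64.2 CPM, but 1 barcode held 41.2% of its UMIs, and *PRTN3* came from 2 barcodes, 1 with 99.3% of it. Among NK and innate lymphoid markers, 3 of 3 compared were higher than in CD3-low progenitors, and the summed level of the list was 296 against 99.4 CPM. Their part in the results was not tested. *NKG7* stood at 173 against 79.1 CPM, but lost its call at 117 CPM with 10 to 39 CD3 UMIs alone and also without Scrublet calls. *GZMA* stood at 61.1 against 10.3 CPM, while *GNLY* at 28.3 CPM rested on 1 barcode with 74.4% of its UMIs, and *EOMES* was at 0. *FST*, a marker of type 2 innate cells, had UMIs in 26 barcodes, 1 of which held 43.0%. Of the 7 markers of later thymocytes 4 stood under 5 CPM, among them *CD4* and *CD8B*, but the list summed to 98.6 CPM against 9.56 in CD3-low progenitors, most of it from *CD1E* at 73.7 against 4.59 CPM.

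**Figure D4:**
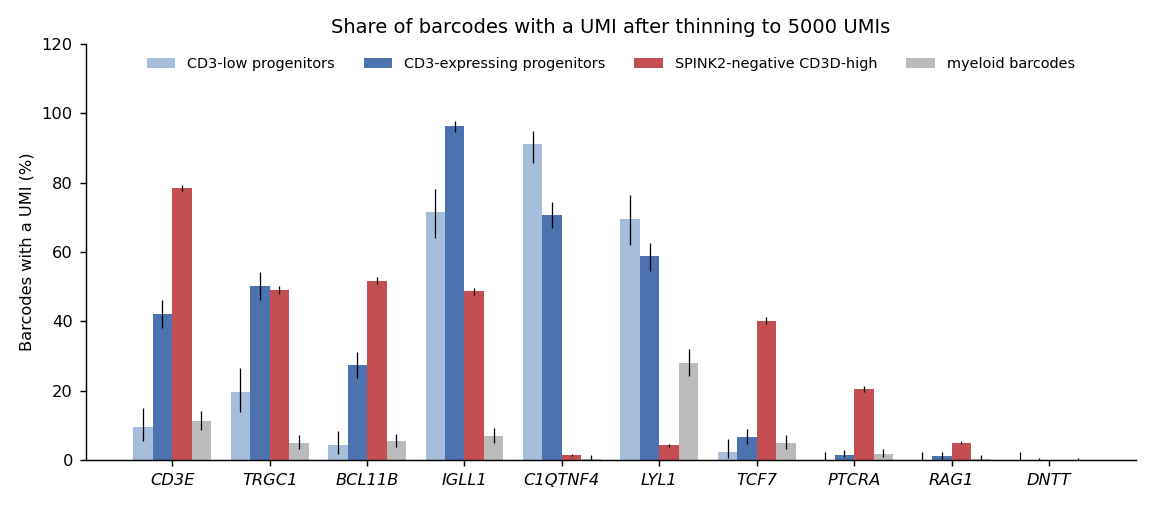
Share of barcodes (%) with a UMI of 10 genes after thinning to 5000 UMIs, with exact binomial 95% intervals, in CD3-low progenitors, CD3-expressing progenitors, SPINK2-negative CD3D-high cells and myeloid barcodes. CD3-expressing progenitors lie between the other lymphoid groups for CD3E and BCL11B, lie close to SPINK2-negative CD3D-high cells for TRGC1 and exceed them for IGLL1, and none has DNTT.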

How the data were processed

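CD7+ cells of the H1 line were profiled as 1 library per day, with a 3′ v2 droplet kit per the labels. Per the submitters' processing notes the authors used Cell Ranger 4.0.0 and GRCh38. The deposited values are raw UMI counts of 36601 genes, without normalization or a filter on cells. A barcode was kept if it had between 1000 and 7000 genes with a UMI and no more than 18% of its UMIs from mitochondrial genes, leaving 12114 at day 10 (median 16173.5 UMIs) and 8929 at day 14 (median 15029).

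The members and gene lists were chosen with earlier results of these data known. Group sums were turned into CPM, with Poisson intervals (exact), and shares carry exact Clopper-Pearson intervals (scipy 1.17.1, numpy 2.4.6, pandas 2.3.3, Python 3.11.15). Log2 ratios added 5 CPM to both levels, and genes under 20 CPM in every group compared and the 6 genes of the rule were left out. A gene counted as higher or lower at 2-fold, or at 1.5-fold against both groups. No test was run, since cells are not replicates. For shares, barcodes were thinned to 5000 UMIs without replacement, which left out 1 CD3-low progenitor and 67 SPINK2-negative CD3D-high cells, and a count of 0 is given an upper limit of 3 counts. Doublets were kept, and Scrublet with its automatic threshold (scanpy 1.11.5) called 298 day 10 barcodes. Named were the genes of the rule, list genes at 20 CPM or more in a group or as not detected, the 15 highest and 15 lowest ratios of each comparison at 50 CPM or more, and the 10 farthest above and below both groups. Genes under these levels (*RAG1*, *KIT*, *FLT3*, *CD4*, *CD8B*, *PRTN3* and other markers) were named after their values were seen, as low. The ratio step was tested on simulated data. Alternatives changed the limits of the rule, depth, doublets, pseudocount, filter and scaling. Gene coordinates came from GENCODE by gene ID and promoters from RefSeq, in which *CD3D*, *CD34* and *SPINK2* were matched by symbol and *CD3G* was not.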

Additional observations from a re-analysis of the deposited data

Results flagged for a closer look

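The day 14 library was not part of the comparisons, but 9 of its 8929 kept barcodes met the same limits (0.101%, exact binomial 95% interval 0.0461 to 0.191), and all 9 had at least 10 *CD3D* and *CD3G* UMIs. Over these 9 barcodes *CD34* stood at 144 CPM (35 UMIs), *CD3D* at 1009 CPM, *BAALC* at 57.4 CPM (14 UMIs) and *CD8B* at 73.8 CPM (18 UMIs). It stands here because this library lies outside the comparisons and the count exceeds the 3 that a count of 0 allows.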

How the results depend on the processing

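No replicate could be left out and no test made, with 1 library per day. No paired analysis was possible because each day is 1 library and no result comes from a test. The causes of the shifts were not tested. The 586 members became 327 at 20 or more CD3 UMIs and 321 between 10000 and 20000 total UMIs. The 93 genes higher than in CD3-low progenitors became 151 and 57 under these limits, 45 with 20 CPM added, 49 at 50 CPM or more and 144 with no filter. The 36 lower genes became 59 at 5 or more CD3 UMIs, 72 at 20 or more, 23 between the depth limits, 64 and 13 with 1 and 20 CPM added, 15 at 50 CPM or more, 69 with no filter and 84 with median-ratio scaling. Against SPINK2-negative CD3D-high cells, the 153 higher and 152 lower genes became 242 and 260 between the depth limits, 79 and 80 with 20 CPM added, and 78 and 85 at 50 CPM or more, and with no filter 256 were higher. The 15 genes above both groups became 37 at 5 or more CD3 UMIs, 35 between the depth limits, 23 without Scrublet calls, 6 with 20 CPM added, 8 at 50 CPM or more, 37 with no filter and 8 with median-ratio scaling. The 4 below both became 11, 13 and 8 under the first 3 of these, 2 at 10% mitochondrial UMIs or less, 8 and 2 with 1 and 20 CPM added, and 11 with median-ratio scaling. The 7 gene lists with a median log2 ratio beyond 0.5 in either direction became 4 between the depth limits and 4 at 50 CPM or more. Only lists with at least 5 genes compared were counted, and in both settings the receptor chain and cytokine receptor lists had fewer. The median of the stem and progenitor transcription factors was -0.37 and -0.45 in these settings. Of alternatives chosen after seeing the data, members with 10 to 39 CD3 UMIs gave 52 higher than CD3-low progenitors, 27 above both, 11 below both and 4 lists, and the *GATA2* and *HLA-DRA* limits set on SPINK2-negative cells too gave 2 below both. In all, 498 log2 ratios of genes were recomputed, and changes of sign were counted only for ratios of at least 2-fold in the main run. Of those, 3 changed sign. They were *ID1* over CD3-low progenitors (-0.43, between the depth limits) and *HLA-DPA1* and *HLA-DPB1* over SPINK2-negative cells (0.0933 and 0.0278, with those 2 limits). Sign changes of smaller ratios were not counted. Of 7470 recomputed values, 1288 moved by more than the half-width of their counting interval. Between the depth limits 279 of the 498 did.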

Other observations

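Of 10 genes of adhesion and homing compared with CD3-low progenitors none passed 2-fold (median log2 ratio 0.12, or 0.40 over the whole list with no filter on low values). *ITGA4*, the alpha chain of the integrin VLA-4, stood at 319 CPM against 115 in SPINK2-negative CD3D-high cells, and *CD44* at 123 against 42.6. *SELPLG*, which encodes PSGL-1, was lower than in those cells, at 31.7 against 71.8 CPM. *CXCR4*, a chemokine receptor too low to be compared with CD3-low progenitors, stood at 10.4 CPM against 0.764 in them and 22.9 in SPINK2-negative CD3D-high cells.

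Housekeeping programs differed little from CD3-low progenitors. Of 17 genes of MYC and ribosome biogenesis, 12 of glycolysis, 7 of the BCL2 family and 7 oncofetal genes, 0 passed 2-fold in either direction, with median log2 ratios of 0.32, 0.24, 0.34 and -0.11. *HMGA1*, a chromatin protein of embryonic cells, stood at 999 CPM against 994 in CD3-low progenitors and 1011 in SPINK2-negative CD3D-high cells. *HMGA2* stood at 32.7, 59.2 and 18.4 CPM. Of 8 MHC class I genes *HLA-E* alone was lower, at 35.5 against 85.2 CPM. MHC class II genes other than the one used to choose the cells stood at 63.6 CPM summed over 9 genes, against 18220 CPM in myeloid barcodes.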
